A study of Mus musculus with 27 samples.

Results

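The monocyte and macrophage gene program was taken as 39 named genes, of 37991 genes quantified, chosen by name for their known use in blood-derived phagocytes and grouped here by role: 6 leukocyte genes, 3 lineage regulators, 6 Fc receptors and adaptors, 3 complement C1q chains, 4 scavenger receptors, 5 lysosomal and effector proteins, 2 chemokine receptors and 10 further surface and cytoskeletal proteins. RNA sequencing had been carried out on C57BL/6J-Col3.6 CFP mouse cells on days 2, 4, 6, 8, 10, 12, 14, 16 and 18 of osteoblast differentiation. The cells came from neonatal calvaria, carried cyan fluorescent protein under the Col3.6 promoter, a collagen promoter that is active in osteoblast-lineage cells and some other stromal cells, and were sorted for that fluorescence after a short culture. They then grew in medium with ascorbic acid, beta-glycerol phosphate and serum, and all 9 time points shared strain, sort and medium. Each day had 3 profiles, which the labels number as replicates and the study's methods call triplicate samples, but which carried the same index and came from different lanes. Whether they are separate cultures is not settled by these sources. They were summed, and a day counted as 1 sample without a replicate.

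Summed libraries held 22470195 counts on day 10 to 62009157 counts on day 12, with a median of 43146793. The day 10 library was the shallowest, and 3 counts in it corresponded to 0.134 CPM (counts scaled to library size). The labelled cell type was visible in its markers: Col1a1, a chain of bone collagen, averaged 3149 TPM over the days, and Bglap, which encodes osteocalcin, rose by a fitted 11.27 ± 1.11 (SE) on the log2 scale (edgeR adjusted p = 4.75e-05). Of 11 osteoblast markers, 8 rose with day and none fell, where 28.3% of all genes tested rose and 26.1% fell. Sp7 (-1.23 ± 0.83), Spp1 (-1.17 ± 0.54) and Alpl (2.22 ± 1.22) did not pass (edgeR adjusted p = 0.233, 0.0932 and 0.146). Sp7 measured 32.3 TPM on day 2 and 10.6 TPM on day 18.

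Monocytes and tissue macrophages arise from bone marrow or embryonic precursors under the transcription factor PU.1, encoded by Spi1, and survive on signals through the receptor Csf1r. Macrophages that reside in tissues take up dying cells and matrix through scavenger and complement pathways, whereas monocytes newly recruited to inflamed tissue depend on the chemokine receptor Ccr2. In bone, resident macrophages lie beside osteoblasts, and the same precursors can fuse into osteoclasts.

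The program rose steeply and without a plateau, and most of its rising genes first reached 50% of their highest level on day 18. In a straight line in day fitted over all 15659 genes that passed the filter on low counts (edgeR quasi-likelihood test, Benjamini-Hochberg adjustment over all genes tested), 33 of the 36 genes of the program that could be tested rose, 3 did not pass and none fell. Over all genes tested, 28.3% rose and 26.1% fell. The genes of the program were chosen with earlier results of these data known. Their distance from all genes is therefore a description and not independent support. The median fitted change from day 2 to day 18 was 6.43 on the log2 scale for the 36 genes against 0.0514 for all genes tested. Among the 33 that rose it was 6.67, with a range from 1.96 for Coro1a to 10.31 for Fcgr2b and adjusted p from 1.11e-06 to 0.0144, while all 4424 rising genes together had a median of 1.55. The straight line corresponded to a median doubling time of 2.40 days, from 1.55 to 8.14 days. Without the day 18 library, 29 of 33 tested genes still rose and Adam8 fell.

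The summed level of the 39 genes, in TPM (transcript abundance corrected for length, here scaled to the upper quartile of each profile), was 41.1, 51.1, 89.8, 92.4, 248, 612, 712, 1175 and 2796 TPM on the 9 days in order. Lysozyme Lyz2 alone made up 48.4% of that sum on day 2 and between 61.8% and 69.4% on the other days. The number of genes at 1 TPM or more was 6, 5, 11, 11, 22, 32, 30, 31 and 36 over the same days. The sum thus changed little between days 6 and 8 and between days 12 and 14, and increased most from day 16 to day 18. In bulk RNA, more cells of this type and more RNA of these genes per cell cannot be told apart.

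**Figure D1:**
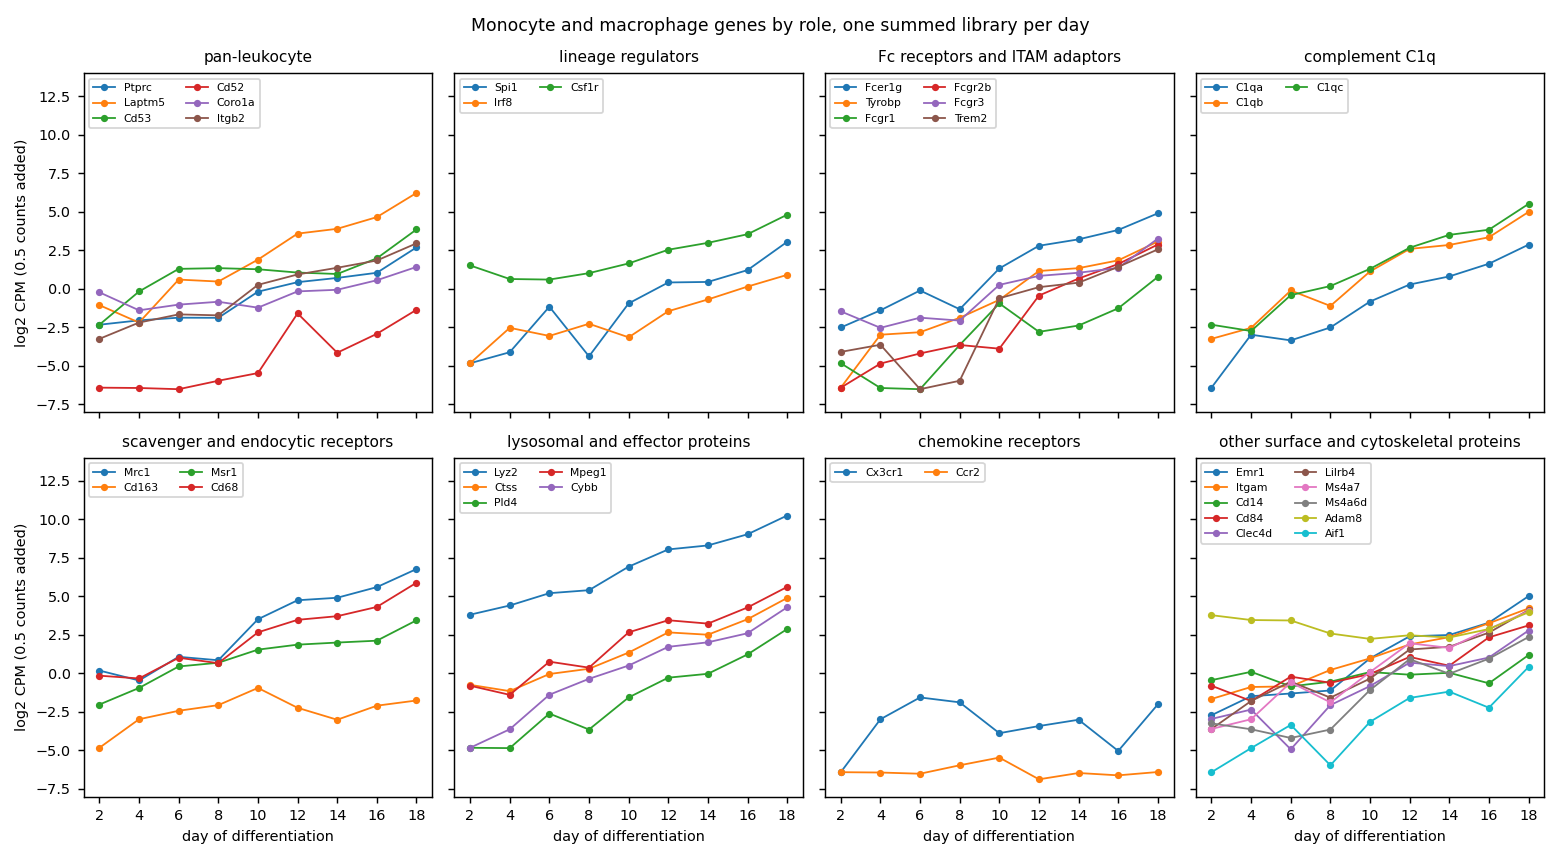
Level of each of the 39 genes, as log2 CPM with 0.5 counts added (vertical axis), against day of differentiation (horizontal axis), with 1 panel per role and 1 point per summed library. Genes without a count on a day sit near the bottom of a panel, as Ccr2 does on all 9 days. Lyz2 is the highest gene of the program, and the curves of most other genes climb in parallel to it from day 8 to day 18.

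The leukocyte genes rose as a group, with 5 of 5 tested genes past the test and a median fitted change of 5.15. Laptm5 (ENSMUSG00000028581, chr4:130469040-130492056 on NCBIM37), a lysosomal membrane protein of blood cells, measured 2.03, 0.386, 2.59, 4.1, 8.35, 25.4, 37.3, 56.2 and 171 TPM on days 2 to 18. Its lowest day was day 4, and each day from day 10 on lay above all earlier days. The fitted change was 7.82 ± 0.52 (SE, edgeR adjusted p = 9.21e-06). Coro1a, an actin-binding protein of leukocytes, had the smallest change of the rising genes, with 2.52, 0.766, 1.21, 1.62, 0.624, 2.01, 2.37, 3.61 and 6.32 TPM. Day 2 of Coro1a was above days 4 to 14 in TPM and above days 4 to 10 in CPM. The slope of Coro1a was -0.07 ± 0.06 (SE) log2 units per day up to day 10 and 0.31 ± 0.06 after it, a difference that did not pass (edgeR adjusted p = 0.0502). That difference passed with TMM factors (edgeR adjusted p = 0.0439) and without day 4 (adjusted p = 0.0351). It also passed with the 27 profiles as separate samples (adjusted p = 0.000161). That fit counts profiles of a day that share 1 index as replicates, so its p-value does not measure spread between cultures. Without day 18 its fitted change was 1.29 (adjusted p = 0.123) and no longer passed.

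Ptprc, the CD45 phosphatase found on all nucleated blood cells, went from 0.0576 to 2.23 TPM, and Itgb2, the beta chain shared by leukocyte integrins, from 0.134 to 4.64 TPM. Cd53, a leukocyte tetraspanin, followed another course, with 0.109, 0.535, 1.52, 1.51, 1.39, 1.35, 1.22, 2.51 and 9.03 TPM. It reached 1.52 TPM by day 6, stayed within 1.22 to 1.52 TPM until day 14 and then climbed. Its fitted change of 3.76 ± 0.78 (edgeR adjusted p = 0.00226) did not pass without day 18 (2.56, adjusted p = 0.0528). Cd52, a short surface glycoprotein of leukocytes, did not pass the filter, with 0, 0, 0, 0, 0, 19, 2, 6 and 16 counts on days 2 to 18. All its counts thus lay on days 12 to 18, and with the filter removed its fitted change was 7.03 (edgeR adjusted p = 0.0164).

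All 3 lineage regulators rose. Spi1 (ENSMUSG00000002111, chr2:90922547-90955913 on NCBIM37), which encodes PU.1, had 1, 2, 20, 1, 11, 78, 60, 114 and 351 counts on days 2 to 18, or 0.0191, 0.0387, 0.468, 0.396, 0.41, 1.76, 2.19, 2.33 and 8.06 TPM. Days 2, 4 and 8 held at most 2 counts, and days 12 to 18 held 60 or more. The day 8 TPM rests on 1 count, and in CPM days 6, 8 and 10 of Spi1 were at 0.436, 0.0319 and 0.496. Its fitted change was 6.91 ± 0.89 (SE, edgeR adjusted p = 0.000165). Irf8, an interferon regulatory factor that directs monocyte development, stayed low, from 0.0193 to 1.16 TPM, and changed by 4.92 ± 0.69 (adjusted p = 0.000248).

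Csf1r (ENSMUSG00000024621), the receptor for the growth factors Csf1 and Il34, was present from the start, with 1.38, 0.804, 0.805, 1.1, 1.75, 2.88, 3.67, 7.04 and 14.9 TPM. It was flat or lower on days 4 to 8 and rose on every step from day 8 on. Its slope was 0.04 ± 0.05 (SE) log2 units per day before day 10 and 0.42 ± 0.05 after it, and the difference between these slopes, 0.37 ± 0.09, passed the test (edgeR adjusted p = 0.019). That call was lost when day 2 or day 18 was left out. Over the whole series Csf1r changed by 3.68 ± 0.55 (adjusted p = 0.000367).

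The promoters of the program were searched for GAGGAA, the core of the site bound by the product of Spi1. RefSeq promoters (GRCm38.p6) were matched for 28 of the 39 genes, and the letters occurred on either strand in the 250 bases before the start of 14 of them (50%), against 25.9% of 27025 genes. In 8 of these 14 genes (57.1%) all letters of a match lay in the 50 bases before the start, against 23.2% of all genes with a match. The match of Fcgr1 began beyond these 50 bases and was not counted. The C/EBP pattern TTNNGNAA occurred in 14 of 28 (50%) against 40.3% of all genes, the AP-1 pattern TGANTCA in 5 (17.9%) against 7.82%, and TATAAA in 4 (14.3%) against 14.3%, on either strand and with overlaps between patterns allowed. These are shares of letters in a window and were not tested, and the span of 50 bases was chosen after the matches were seen. For GAGGAA only the exact letters counted as a match, and other forms of the site were not searched. The 100 bases before the start are printed below for the 8 genes with a whole match in the last 50 bases and for Lyz2, the most abundant gene of the program, which had no match in its 250 bases. Capitals mark GAGGAA or its reverse complement TTCCTC, each promoter reads 5′ to 3′ in the direction of the gene, and positions are on GRCm38.p6.
Laptm5 (chr4:130913216-130913315, plus strand): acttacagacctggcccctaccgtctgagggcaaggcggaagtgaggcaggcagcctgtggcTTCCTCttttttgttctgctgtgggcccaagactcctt
Cd53 (chr3:106790150-106790249, minus strand): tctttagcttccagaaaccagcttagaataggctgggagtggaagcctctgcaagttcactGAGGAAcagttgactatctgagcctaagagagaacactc
Fcgr3 (chr1:171059404-171059503, minus strand): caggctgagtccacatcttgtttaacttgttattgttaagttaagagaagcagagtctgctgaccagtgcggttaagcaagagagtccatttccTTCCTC
Trem2 (chr17:48346301-48346400, plus strand): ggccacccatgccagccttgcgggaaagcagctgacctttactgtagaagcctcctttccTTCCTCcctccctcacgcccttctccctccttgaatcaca
C1qb (chr4:136886201-136886300, minus strand): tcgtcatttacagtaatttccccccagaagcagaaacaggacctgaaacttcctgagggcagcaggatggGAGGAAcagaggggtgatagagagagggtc
Mrc1 (chr2:14229314-14229413, plus strand): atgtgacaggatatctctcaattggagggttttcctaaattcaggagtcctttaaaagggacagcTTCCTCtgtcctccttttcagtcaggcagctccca
Itgam (chr7:128062540-128062639, plus strand): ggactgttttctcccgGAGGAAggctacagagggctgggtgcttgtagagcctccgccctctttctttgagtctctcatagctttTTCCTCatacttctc
Aif1 (chr17:35176053-35176152, minus strand): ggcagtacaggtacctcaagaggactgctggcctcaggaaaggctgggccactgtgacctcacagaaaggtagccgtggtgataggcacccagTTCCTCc
Lyz2 (chr10:117282273-117282372, minus strand): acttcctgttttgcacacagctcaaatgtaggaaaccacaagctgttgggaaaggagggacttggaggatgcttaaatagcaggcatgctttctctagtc

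The Fc receptors and their signalling adaptors rose in 6 of 6 cases, with a median fitted change of 7.60. Fcer1g (ENSMUSG00000058715, chr1:173159703-173164496 on NCBIM37), the common gamma chain through which Fc receptors signal, measured 0.944, 1.44, 3.66, 1.48, 9.22, 28.9, 37.1, 57.5 and 119 TPM. Days 2 to 8 lay at 3.66 TPM or less and days 10 to 18 at 9.22 TPM or more, so the early and late days did not overlap. Its fitted change was 7.39 ± 0.55 (SE, edgeR adjusted p = 1.26e-05). Tyrobp, the adaptor for Trem2 and related receptors, had no count on day 2 and 46.4 TPM on day 18, and changed by 7.82 ± 0.66 (adjusted p = 2.26e-05). Trem2, a lipid-sensing receptor of tissue macrophages, had 2, 3, 0, 0, 14, 63, 58, 132 and 250 counts on days 2 to 18 and changed by 8.04 ± 1.08. It was at 0 on days 6 and 8, and in TPM each later day exceeded the day before.

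Among the IgG receptors, the activating receptor Fcgr3 had the smallest change of the group, with 0.878, 0.245, 0.488, 0.463, 1.9, 2.92, 3.26, 3.95 and 14.9 TPM and a fitted 5.35 ± 0.67 (SE, edgeR adjusted p = 0.000138). The inhibitory receptor Fcgr2b had 0, 1, 2, 2, 1, 43, 70, 150 and 311 counts. At most 2 counts of Fcgr2b were seen up to day 10, and its fitted change of 10.31 ± 0.68 (adjusted p = 9.21e-06) was the highest of the program. The transcripts of Fcgr2b and Fcgr3 share a run of 129 bases, so reads may have been divided between them. Their counts together were 15, 8, 14, 9, 27, 148, 161, 276 and 717. Fcgr1, the high-affinity IgG receptor, was sparse, with 1, 0, 0, 2, 11, 8, 8, 20 and 72 counts. By the onset rule given below its onset was day 16, although its CPM was higher on day 10 (0.496) than on day 16 (0.406).

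The 3 chains of C1q, the recognition molecule of the classical complement pathway that macrophages secrete, rose by similar amounts, with fitted changes of 7.84 for C1qa, 7.71 for C1qb and 8.14 for C1qc. C1qc (ENSMUSG00000036896, chr4:136445719-136448980 on NCBIM37) measured 0.306, 0.232, 1.26, 1.85, 3.86, 11.4, 19.4, 24.8 and 77.8 TPM, and its fitted change had an SE of 0.39 (edgeR adjusted p = 1.56e-06). C1qb (ENSMUSG00000036905, chr4:136436044-136442102) measured 0.179, 0.309, 1.77, 0.845, 3.9, 12.2, 14.1, 20.2 and 61.9 TPM, with a change of 7.71 ± 0.59 (adjusted p = 1.46e-05). C1qa (ENSMUSG00000036887, chr4:136451832-136454718) measured 0, 0.231, 0.182, 0.319, 1.04, 2.61, 3.61, 6.51 and 15.1 TPM, with a change of 7.84 ± 0.59 (adjusted p = 1.3e-05). From day 10 on, C1qa lay below the other chains on every day, although the protein contains its chains in equal numbers. The 3 genes lie side by side on chromosome 4, and each had its highest level on day 18.

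Of the scavenger and endocytic receptors, 3 of 4 rose. Cd68 (ENSMUSG00000018774, chr11:69477715-69479655 on NCBIM37), a lysosomal glycoprotein of macrophages, measured 1.79, 2.05, 3.71, 3.02, 13.1, 20.4, 26.4, 43.9 and 114 TPM and changed by 6.23 ± 0.44 (SE, edgeR adjusted p = 1.1e-05). Mrc1 (ENSMUSG00000026712, chr2:14151041-14253684), the mannose receptor, measured 0.332, 0.219, 0.643, 0.538, 3.45, 8.7, 9.46, 15.8 and 34.3 TPM and changed by 7.41 ± 0.62 (adjusted p = 2.19e-05). Both genes stood well above their earlier levels from day 10 on. Msr1, a scavenger receptor for modified lipoproteins, rose from 0.307 to 11.7 TPM. Its slope was 0.39 ± 0.06 (SE) log2 units per day before day 10 and 0.20 ± 0.05 after it, a difference that did not pass (edgeR adjusted p = 0.215).

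Cd163, the hemoglobin scavenger receptor of resident macrophages, stayed near the detection limit with 1, 5, 8, 7, 11, 12, 5, 11 and 12 counts on days 2 to 18. Its highest day in CPM was day 10, no day held more than 12 counts, and the fitted change of 1.43 ± 1.03 did not pass (edgeR adjusted p = 0.264).

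The lysosomal and effector genes rose in 5 of 5 cases, with a median of 6.67. Lyz2 (ENSMUSG00000069516, chr10:116714390-116719377 on NCBIM37), the lysozyme of macrophages and neutrophils, measured 19.9, 31.6, 55.9, 62.2, 172, 421, 485, 813 and 1855 TPM. It was higher on each day than on the day before, and the fitted change was 6.47 ± 0.30 (SE, edgeR adjusted p = 1.56e-06). Lyz2 shares a run of 118 bases with Lyz1, which had 2200 counts on day 18 against 51612 for Lyz2. Ctss, cathepsin S, had the smallest change of the group, with 0.805, 0.624, 1.41, 1.72, 3.42, 9.64, 8.36, 17.1 and 43.6 TPM and a fitted 6.01 ± 0.41 (adjusted p = 1.08e-05). It dipped on days 4 and 14 and was highest on day 18.

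Mpeg1, a pore-forming protein of phagocytes, went from 0.198 to 19 TPM, and Pld4, a nuclease of endolysosomes, from 0.0191 to 6.8 TPM. Cybb, the catalytic subunit of the phagocyte oxidase, had 1, 3, 17, 24, 31, 194, 179, 299 and 829 counts on days 2 to 18 and changed by 7.87 ± 0.52 (SE, edgeR adjusted p = 9.21e-06). Its counts climbed over days 2 to 8 as well as later.

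No rise was seen in either chemokine receptor. Ccr2 (ENSMUSG00000049103, chr9:124016689-124028296 on NCBIM37), which brings inflammatory monocytes out of the bone marrow, had 0 counts in all 27 profiles, which at a limit of 3 counts allows up to 0.0484 CPM in the deepest library and 0.134 CPM in the shallowest. Cx3cr1 (ENSMUSG00000052336, chr9:119957811-119977400), the fractalkine receptor of patrolling monocytes and many tissue macrophages, had 0, 5, 15, 8, 1, 5, 5, 1 and 10 counts. Its highest counts fell on days 6 and 18 and its lowest on days 2, 10 and 16. It did not pass the filter, and without the filter its fitted change was 0.05 (edgeR adjusted p = 0.982). Its day 18 level of 0.106 TPM stood beside 14.9 TPM for Csf1r.

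Among the 10 further surface and cytoskeletal proteins, 8 rose. Emr1 (ENSMUSG00000004730, chr17:57498109-57622952 on NCBIM37), an adhesion receptor used as the standard surface marker of mouse macrophages, measured 0.0704, 0.478, 0.279, 0.494, 1.13, 3.14, 3, 6.73 and 17.2 TPM. Days 2 to 8 were below 0.5 TPM and days 12 to 18 at 3.00 TPM or more, and the fitted change was 7.73 ± 0.49 (SE, edgeR adjusted p = 9.21e-06). Ms4a7, a tetraspan membrane protein of mature macrophages, had the highest mean level of this group, with 0.115, 0.27, 1.11, 0.47, 1.67, 7.97, 6.02, 13.4 and 32.1 TPM. It was at 1.67 TPM or less up to day 10, higher on day 12 than on day 14, and highest on day 18, with a fitted change of 7.29 ± 0.65 (adjusted p = 2.75e-05). Ms4a6d, a related tetraspan protein, reached 7.41 TPM, and Lilrb4, an inhibitory receptor, 23.4 TPM. Lilrb4 shares a run of 241 bases with Gp49a, and the counts of both together rose from 5 on day 2 to 1111 on day 18.

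Itgam, the alpha chain of the integrin Mac-1, had 13, 23, 25, 36, 43, 216, 226, 470 and 789 counts on days 2 to 18. Its counts and TPM were higher on each day than on the day before, and its fitted change of 5.98 ± 0.26 (SE) had the lowest adjusted p of the program (edgeR, 1.11e-06). Clec4d, a C-type lectin that binds mycobacterial and fungal glycolipids, measured 0.16, 0.27, 0.0324, 0.332, 0.751, 2.51, 2.05, 3.09 and 10.2 TPM and changed by 6.24 ± 0.79 (adjusted p = 0.000146). It was at or below 0.332 TPM up to day 8 and at 2.05 TPM or more from day 12 on. Cd84, a homophilic receptor of blood cells, changed by 4.26 ± 0.57, and Aif1, an actin-bundling protein of macrophages, by 6.12 ± 1.14 with 56 counts on day 18.

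Cd14 and Adam8 were the members of this group that did not pass. Cd14 (ENSMUSG00000051439), the co-receptor for bacterial lipopolysaccharide, had 31, 46, 25, 21, 23, 55, 45, 31 and 96 counts on days 2 to 18, or 0.82, 1.26, 0.657, 0.787, 1.18, 1.19, 1.24, 0.785 and 2.76 TPM. Days 2 to 16 ranged from 0.657 to 1.26 TPM without order, day 18 stood above them, and the fitted change was 1.04 ± 0.54 (SE, edgeR adjusted p = 0.129). Adam8 (ENSMUSG00000025473, chr7:147164831-147178461 on NCBIM37), a membrane protease of leukocytes and osteoclasts, measured 7.27, 6.02, 6.38, 3.43, 2.44, 3.73, 2.87, 4.31 and 9.64 TPM. Its course was a trough, lowest on day 10 and highest on days 2 and 18, and the straight line gave -0.26 ± 0.52 (adjusted p = 0.704). Adam8 fell before day 10 by a slope of -0.23 ± 0.04 log2 units per day (adjusted p = 0.00138) and rose after it by 0.18 ± 0.04 (adjusted p = 0.0244), and these slopes differed (adjusted p = 0.00536).

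**Figure D2:**
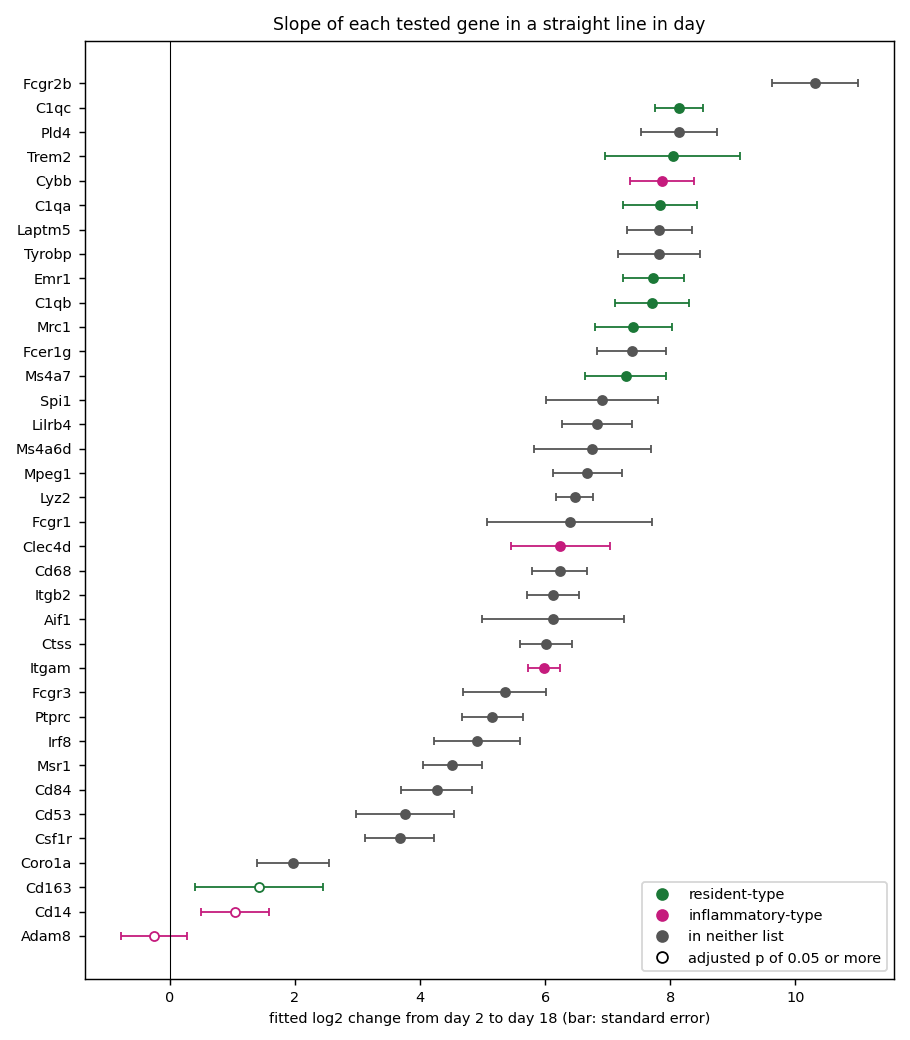
Fitted log2 change from day 2 to day 18 (horizontal axis, with standard error) for the 36 tested genes, sorted by size. Filled points passed the test at an adjusted p below 0.05. The 3 open points, Cd163, Cd14 and Adam8, are the lowest, and Fcgr2b is the highest at 10.31.

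Onset was set as the first day at 2 times the day 2 CPM or more, with exact Poisson 95% intervals that did not overlap those of day 2, on that and all later days. Among the 33 genes that rose, the median onset was day 10, and 14 genes had theirs on that day. Onset came earlier in 10 genes, 1 on day 4 (Cd53), 7 on day 6 and 2 on day 8. It came later in 9 genes, 7 of them on day 12, with Fcgr1 on day 16 and Coro1a on day 18. Those of day 6 were Laptm5, C1qb, C1qc, Msr1, Lyz2, Mpeg1 and Cybb, and those of day 8 were Tyrobp and Itgam. All 4424 rising genes had the same median onset of day 10, where 1550 of them met the condition on no day. The intervals cover counting error only, so a gene with few counts on day 2 needs a larger fold to reach onset. On TPM without the interval condition, the median onset of the program was day 6.

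The rate before and after day 10 was compared with a line that may bend at day 10, fitted over 16256 genes. Before day 10, 24 of the 38 genes with any count rose, against 24.2% of all genes. After day 10, 30 of 38 rose, against 4.02% of all genes. The median slope of those 30 was 0.423 log2 units per day, a doubling in 2.36 days. The slope increased at day 10 in 2 genes, Csf1r and Adam8, against 4.87% of all genes, and decreased in none, against 8.03% of all genes. The median change of slope over the 38 genes was 0.00618 log2 units per day.

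**Figure D3:**
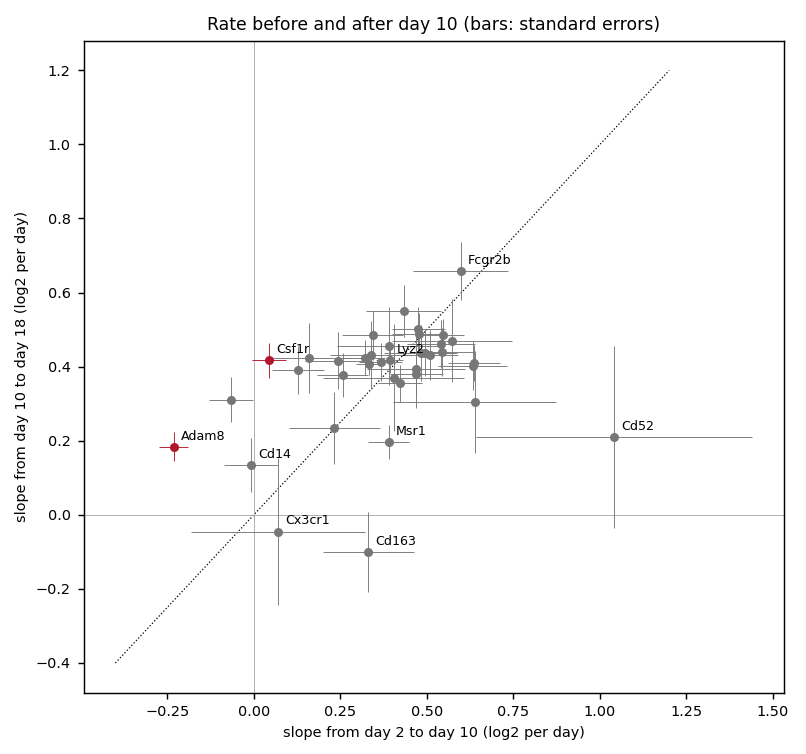
Slope after day 10 (vertical axis) against slope before day 10 (horizontal axis), in log2 units per day with standard errors, for the 38 genes with any count, and a dotted line of equal slopes. Csf1r and Adam8 (red) lie above the line with a change of slope past the test. Cd163 and Cx3cr1 lie below 0 after day 10, and Fcgr2b is at the top.

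No plateau was seen. All 33 rising genes had their highest CPM on day 18, against 44.4% of all rising genes. Relative to day 18, their median level was 1.15%, 1.37%, 3.03%, 2.61%, 8.49%, 19.7%, 22.2% and 38.4% over days 2 to 16 in order. The first day at 50% of the highest level was day 18 for 29 genes and day 16 for 4 (Coro1a, Irf8, Itgam and Cd84), whereas over all rising genes the median was day 8. From day 16 to day 18, 29 of 33 genes (87.9%) increased by 2 times or more, against 5.22% of all rising genes. The median log2 change over that step was 1.38, against 0.0707 for all rising genes, and it was 2.17 from day 14 to day 18, against 0.0867. The last step rests on a single library, that of day 18.

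Step by step, the 36 tested genes did not move evenly. Their median log2 change was 0.60 from day 2 to day 4, 0.73 to day 6, 0.19 to day 8, 1.47 to day 10, 1.17 to day 12, 0.22 to day 14, 0.74 to day 16 and 1.36 to day 18. All 36 were higher on day 18 than on day 16, 32 of 36 were higher on day 12 than on day 10, and 20 of 36 were higher on day 8 than on day 6. The medians over all genes tested lay near 0 at every step, between -0.01 and 0.03. The lowest of days 14 to 18 exceeded the highest of days 2 to 6 in 32 of the 36 genes, against 32.6% of all genes tested.

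**Figure D4:**
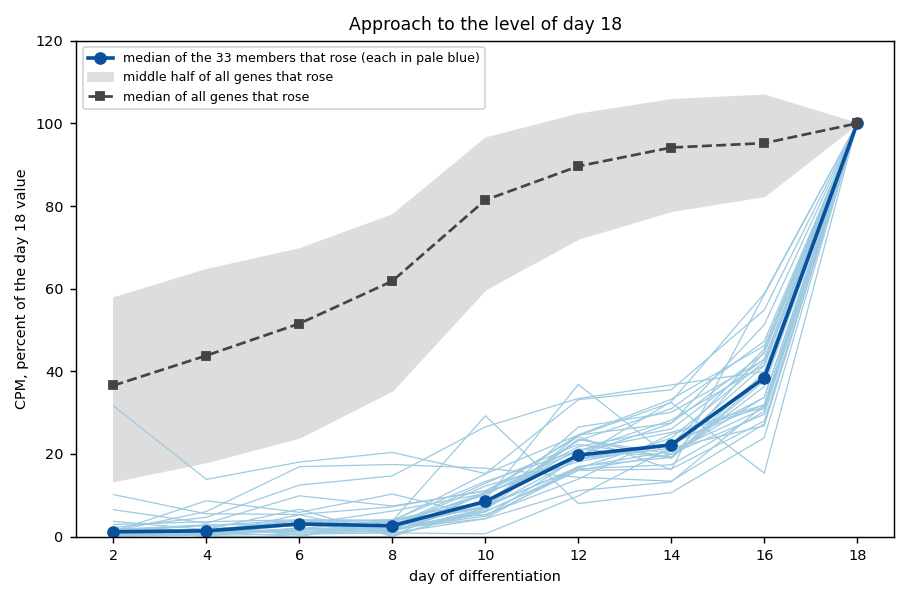
CPM of each day as a percentage of its value on day 18 (vertical axis) against day (horizontal axis) for the 33 rising genes of the program (pale lines, median in dark blue) and for all rising genes (dashed median, shaded middle range from the lower to the upper quartile). On day 16 the program's median stood at 38.4%, where the median of all rising genes was 95.2%.

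Resident-type and inflammatory-type genes were compared as lists. Of 9 resident-type genes (C1qa, C1qb, C1qc, Mrc1, Cd163, Emr1, Ms4a7, Trem2 and Cx3cr1), 8 were tested and 7 rose, with a median fitted change of 7.72 and a range of 1.43 to 8.14. Of 6 inflammatory-type genes (Ccr2, Cd14, Clec4d, Adam8, Cybb and Itgam), 5 were tested and 3 rose, Cybb, Itgam and Clec4d, with a median of 5.98 and a range of -0.26 to 7.87. The medians differed by 1.74, the ranges overlapped, and no test was made over so few genes. The gene of each list that lacked enough counts for the test was a chemokine receptor. Summed CPM went from 1.68 on day 2 to 249 on day 18 for the resident-type genes. For the inflammatory-type genes it went from 14.9 to 62.9. Adam8 supplied 13.7 CPM of the inflammatory-type sum on day 2 and 15.6 CPM on day 18, so most of the day 2 sum was Adam8. The increase of that sum came mostly from Cybb (0.0234 to 19.5 CPM), Itgam (0.304 to 18.6 CPM) and Clec4d (0.117 to 6.86 CPM). Cd14 went from 0.725 to 2.26 CPM.

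Within each library the ratio of C1qa to Cd14 needs no scaling between libraries. Its log2 (0.5 counts added) was -5.98, -3.08, -2.50, -1.97, -0.91, 0.37, 0.77, 2.28 and 1.68 on days 2 to 18. The ratio increased with day (Pearson r = 0.966, exact permutation p = 2.76e-05, two-sided; Spearman rho = 0.983, exact permutation p = 4.96e-05, n = 9 days). Without days 2 and 18, the days farthest from the middle, r was 0.989 (exact permutation p = 0.000397). C1qa passed Cd14 in counts on day 12. The result depends on the gene in the denominator: Cd14 is an inflammatory-type gene that did not pass the test in day, whereas Cybb of the same list had a fitted change of 7.87 beside 7.84 for C1qa, and Clec4d and Itgam had 6.24 and 5.98. Ratios to those genes were not tested. This was the single ratio computed, so its adjusted p equals the raw one. The pair was chosen with earlier results of these data known, and both fitted changes come from the same 9 libraries. The p-value therefore describes the trend and adds no independent support.

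Other genes of macrophage biology were read from lists, to be set beside 28.3% rising and 26.1% falling over all genes tested. Of 14 further resident macrophage genes, 12 were tested, 11 rose and none fell. Stab1, a scavenger receptor of tissue macrophages, changed by 7.31 ± 0.63 (SE) and Siglec1, a sialic acid receptor, by 5.93 ± 0.42. In TPM, Stab1 was less regular, with 7.01 on day 2 and 9.81 on day 8, above days 10 to 14, and 82.9 on day 18. Vsig4, a complement receptor, changed by 11.77 ± 1.29. It had 0, 0, 0, 0, 1, 7, 45, 86 and 71 counts on days 2 to 18, so the size of its change rests on days without counts. The transcription factor Maf, the highest of the list by mean TPM, changed by 1.83 ± 0.27. Folr2, a folate receptor, changed by 1.95 ± 0.80 and did not pass (edgeR adjusted p = 0.0592).

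Of 14 further inflammatory monocyte genes, 4 were tested. The formyl peptide receptor Fpr1 rose by 4.71 ± 1.61 (SE, edgeR adjusted p = 0.0294) on 53 counts in all, and 3 fell: Plac8 with -3.45 ± 1.11, Vcan with -1.27 ± 0.30 and Ptgs2 with -8.57 ± 0.87. Vcan, a matrix proteoglycan, and Ptgs2, the inducible prostaglandin synthase, are also products of mesenchymal cells and averaged 131 and 82.4 TPM. Chi3l3, Il1b and Nos2 were among those with 0 counts on all days, and the rest were too low to test. Of 6 alternative activation genes, only the chemokine Ccl17 was tested, and it fell by 2.20.

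Signalling and sensing genes rose for the most part. Toll-like receptors and their partners rose in 8 of 9 tested cases, among them the lipopolysaccharide co-receptor Ly96, the highest by mean TPM, with 1.45 ± 0.24 (SE), Tlr4 with 1.53 ± 0.13, Tlr8 with 8.22 ± 0.75 and Tlr13 with 6.66 ± 0.70, while Tlr1 with 0.92 ± 0.49 did not pass (edgeR adjusted p = 0.136). Of 5 subunits and partners of the phagocyte oxidase, 4 were tested and 3 rose, among them Ncf1 and Rac2. Cyba, the small membrane subunit, which many cell types make, averaged 25.9 TPM and had a fitted -0.33 ± 0.22 (adjusted p = 0.236). Of 10 myeloid signalling genes, 8 were tested and 6 rose, among them the pleckstrin gene Plek with 3.63 ± 0.31 and the adaptor Lcp2 with 7.23 ± 0.93. The kinase Syk fell by 1.78 (adjusted p = 0.00429).

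The ligands of these receptors moved in both directions. Of 9 listed, 6 were tested, and of these 2 rose, 3 fell and Tgfb1 did not pass. Csf1 (ENSMUSG00000014599), the main growth factor for Csf1r, measured 848, 550.0, 375, 228, 184, 196, 215, 193 and 215 TPM on days 2 to 18. It was highest on day 2 and changed by -2.06 ± 0.38 (SE, edgeR adjusted p = 0.00109). Il34, the other ligand of Csf1r, measured 6.54, 6.44, 6.86, 10.3, 14.8, 17.2, 13.2, 19.2 and 25.6 TPM and changed by 2.39 ± 0.17 (adjusted p = 1.1e-05). Csf1 remained above Il34 on all 9 days. The monocyte chemokines Ccl2 and Ccl7 changed by -3.16 ± 0.55 and -3.81 ± 0.52, and Cx3cl1, the ligand of Cx3cr1, by 1.91 ± 0.35.

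The genes outside the program whose log2 CPM followed the mean of its standardised values most closely over the 9 days were Creg1 (Pearson r = 0.996), Lcp1 (0.995), Fyb (0.994), Plek (0.994) and Siglec1 (0.993). These correlations describe 9 libraries, and both sides of each share the depth and scaling of the library. Lcp1, the leukocyte plastin, rose from 0.531 to 32.4 TPM and Creg1, a secreted glycoprotein, from 22.7 to 89.6 TPM.

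Markers of other blood-derived cells were measured beside the program. Of 11 osteoclast markers, 9 were tested, and over all genes tested 28.3% rose and 26.1% fell. Among the 9 markers, 4 rose, Acp5 by 4.36, Ctsk by 2.29, Mmp9 by 3.90 and Atp6v0d2 by 5.21, and Nfatc1 fell by 1.45. A further 4 did not pass, and Calcr and Dcstamp had 0 counts on all days. The summed CPM of the 11 markers ranged from 115 on day 2 to 229 on day 16, most of it from Ctsk, which averaged 129 TPM. None of the 8 neutrophil markers passed the filter, 4 of them had 0 counts, S100a9, Mpo, Ltf and Ngp, and their sum was at most 0.203 CPM. For T cells, Cd3e, Cd3d and Cd3g had 0 counts, while Cd4, which some macrophages also make, rose by 4.54 and the sum of the 6 markers was between 0.109 and 4.38 CPM. For B cells, Ms4a1 had 0 counts and the list was at most 0.458 CPM.

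Of 7 mast cell markers, 2 were tested and rose, Kit by 7.69 and Cpa3 by 5.37, and 3 of the 7 had 0 counts, Mcpt4, Tpsb2 and Fcer1a. The sum of the 7 was 0 CPM on day 6 and 4.17 CPM on day 18. Of 7 dendritic cell markers, 3 were tested, Zbtb46 rose by 0.94, Xcr1 fell by 3.24, and the sum ranged from 3.51 to 5.79 CPM. Of 4 megakaryocyte genes, 3 were tested and Pf4, which macrophages also express, rose by 5.31. Of 4 erythroid genes, 2 were tested and Epor rose by 3.71. Of 5 endothelial markers, 3 were tested, of which 2 rose and 1 fell. Over all genes tested, 28.3% rose and 26.1% fell. Adipocyte markers rose in 5 of 5 cases, with a median of 11.49 and a sum of 6.17 CPM on day 2 and 201 CPM on day 18. The part of the osteoclast, mast cell and adipocyte lists in the rise of the program was not tested.

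**Figure D5:**
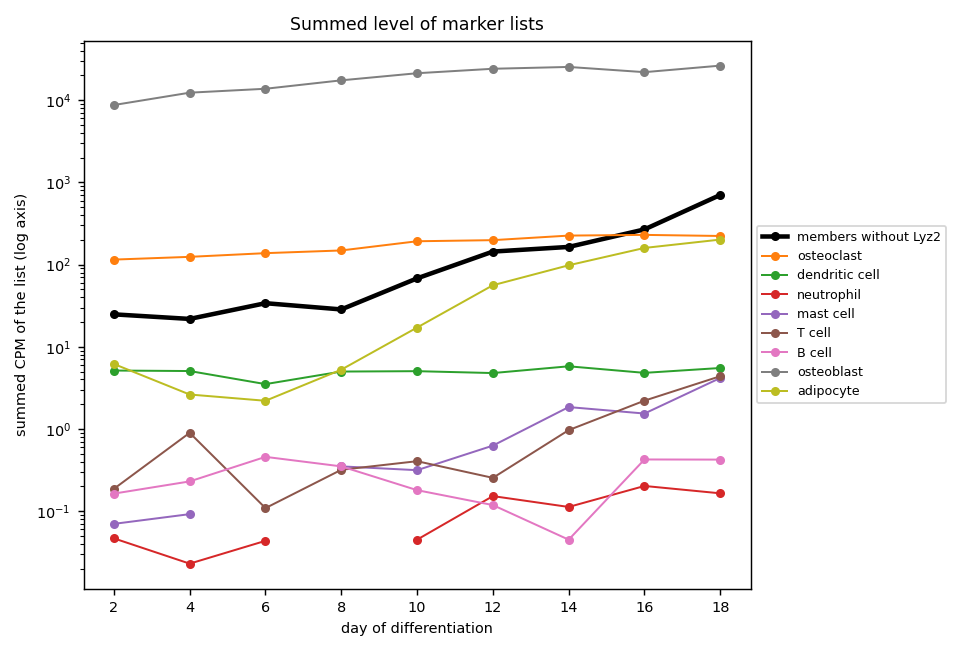
Summed CPM of marker lists (vertical, log axis) against day (horizontal axis), with the program without Lyz2 in black. The program went from 24.8 CPM on day 2 to 702 CPM on day 18, crossing the osteoclast list between days 14 and 16, while the neutrophil and B cell lists stayed below 0.5 CPM. Sums of 0 (neutrophil on day 8, mast cell on day 6) have no point.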

How the data were processed

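RNA from mouse calvarial cells of 9 time points was sequenced, with 3 profiles per time point. Per the labels and methods, the authors amplified cDNA with NuGEN Ovation, made TruSeq libraries, aligned reads with Bowtie 0.12.9 to NCBIM37 transcripts and quantified them with RSEM 1.2.8, with a fragment length of 280 ± 50 bases. RSEM's version differs between the sources. The deposited estimated counts are not normalized, and shared reads are divided between genes. The deposited TPM values are corrected for length and scaled to a constant sum. The FPKM values deposited by the authors were read for checks and not used in a result.

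The 3 profiles of a day carry 1 index and differ by lane (common dispersion 0.000232 between lanes against 0.0581 around the line in day), so their counts were summed and rounded, although the study's methods call them triplicate samples. Each p-value measures the scatter of 9 libraries around a line, and nothing measures the spread between cultures. edgeR 4.0.16 in R 4.3.3 was fitted to all genes with upper-quartile factors, a minimum count of 10 and a threshold of 0.05 after Benjamini-Hochberg adjustment. A fitted change is the slope times 16 days. Levels between genes are TPM scaled to the upper quartile, averaged over 3 lanes. Symbols came from GENCODE for NCBIM37 (37205 of 37991 identifiers, 786 without). Genes with values for every day were those with the highest mean TPM and the smallest change in each role, preset names, and those not past the test or filter. The members, lists and tests were chosen with earlier results of these data known. The scripts were tested on simulated data. Alternatives covered normalization, filters, DESeq2 1.42.0, omitted days and lanes, curve shape and onset settings. Intervals cover counting error only. Some genes of the lists are counted but not reported here by name.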

Additional observations from a re-analysis of the deposited data

How the results depend on the processing

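The number of genes of the program that followed day was 33 of 36 tested. Over the alternatives it ranged from 28 of 29 tested (minimum count of 50) to 35 of 38 tested (natural spline, and without day 16). Over all genes it was 8510, between 6829 and 10881. The number with a change of slope at day 10 was 2, and 1 with the change at day 8 (Csf1r) or day 12 (Adam8), and 3 with TMM factors, where Coro1a was added. With the 27 profiles as separate samples it was 5, both without and with the replicate number as a block. All genes then gave 6881 and 6735 against 2096. Fits with 27 profiles count profiles that share 1 index as replicates. Lane numbers did not pair the samples: deviations of same-numbered profiles had a mean correlation of 0.00568 (from -0.0666 to 0.0580), so the block (32 of the program and 10881 of all genes following day) shares only a number. With 1 day left out, which for the change of slope was chosen after seeing the data, the program gave 1 to 3 and all genes 802 (without day 18) to 2246, with 998 without day 10 and 1367 without day 12. With 1 lane left out, the program gave 2 and all genes 2018 to 2107. The median onset was day 6 on TPM, and the median day at 25% of the highest level was 15. The median difference between resident-type and inflammatory-type genes was 1.30 to 2.01 with 1 day left out and 1.44 to 1.83 with 1 lane left out. Cd14 turned to -0.062 (edgeR adjusted p = 0.953) without days 2 and 18, also chosen after seeing the data, and passed with 27 profiles (1.05, or 1.07 with the block) and without day 16 (1.35). Adam8 turned to 0.16 without day 2 (adjusted p = 0.852) and fell by 1.39 without day 18 (adjusted p = 0.016). Cd53 did not pass without day 18 (2.56), between days 2 to 6 and 14 to 18 (2.52) and without days 2 and 18 (1.42), nor Coro1a without day 18 (1.29). The cause of these changes was not tested. For single genes, 677 other values kept direction and side of the threshold. The ratio of C1qa to Cd14 kept r between 0.924 and 0.989. The ratio of Mrc1 to Ccr2 was not run because Ccr2 had 0 counts. Depth limits Ccr2, Cx3cr1, Cd52 and Cd163, and each day is 1 library.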
